A study of Mus musculus with 12 samples.

Results

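Dendritic cells are the leukocytes that take up antigen and present it to T cells, and 10 genes that are widely used to tell their kinds apart were followed here in mouse lung. The members were taken by gene symbol (Flt3, Xcr1, Clec9a, Itgae, Zbtb46, Cd209a, Ccr7, Siglech, Batf3 and Irf8), and all 10 were found among the 35599 genes of the table. RNA of whole lung was sequenced from 12 samples in 3 groups of 4. The saline control group was given saline. The AE-PF group was challenged with bleomycin (BLM) and lipopolysaccharide (LPS), which models an acute exacerbation of pulmonary fibrosis, and was left untreated. The ND-RHL group had the same BLM and LPS challenge and then received ND-RHL, a liposome that carries nintedanib (a kinase inhibitor used against fibrosis) together with dexamethasone (a glucocorticoid) and has hyaluronic acid and RGD peptides on its surface. The AE-PF and ND-RHL groups therefore share the challenge and differ in the liposome, and a group given empty liposomes or either drug alone was not analysed here. Strain, sex, age, doses and the day of collection are unknown from the labels, as is whether each sample was 1 animal, so the p-values measure the spread between these samples, which may be technical in part.

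As background, conventional dendritic cells of the cDC1 kind depend on the transcription factors Irf8 and Batf3, carry Xcr1 and Clec9a, and present material from dying cells to CD8 T cells. In the lung they also carry Itgae, the CD103 integrin chain, and lie close to the airway epithelium. The cDC2 kind and monocyte-derived cells carry lectins such as Cd209a, and plasmacytoid dendritic cells, which make type I interferon, carry Siglech. Flt3 is the growth factor receptor that the cDC1, cDC2 and plasmacytoid lineages need. Zbtb46 is a transcription factor of conventional dendritic cells that endothelium also expresses, and Ccr7 guides mature dendritic cells and naive lymphocytes to lymph nodes. Most of the 10 genes are thus read in more than 1 cell type in a whole lung.

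Values are FPKM, fragments scaled by gene length and by the total of the library, and groups are given as mean ± SD over 4 libraries. Libraries held 16152379 to 21667129 counted fragments, and a gene of 1 kb with 3 fragments would stand at 0.14 to 0.19 FPKM. All 10 members passed the filter on low values (1 FPKM in at least 4 libraries), and the lowest member value in any library rested on 16 fragments (Siglech in AE-PF library 2). The surfactant gene Sftpc, which marks alveolar type 2 cells, had a mean of 11822 FPKM in saline and 2635 FPKM in AE-PF libraries, so lung tissue was present in both. Differences between groups are given on the log2(FPKM + 1) scale with the standard error (SE) and the limma p adjusted by the Benjamini-Hochberg method over 15164 genes, called at 0.05. This scale understates the change of low genes. AE-PF library 2 and ND-RHL library 4 stood apart, since they held transcripts of squamous epithelium and skeletal muscle. The squamous keratin Krt13 stood at 899 and 2948 FPKM in them and at no more than 0.271 FPKM in any other library, and skeletal actin Acta1 stood at 368 and 955 FPKM against at most 78.2 FPKM elsewhere. Member results that rest on these libraries are given with and without them, as are several list counts and partners. Other list counts also changed without them, so a list count given once need not be unchanged.

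Promoter stretches are printed for 4 members whose behaviour differed: Cd209a, which was lower in AE-PF, Xcr1 and Flt3, whose AE-PF values spread widely, and Irf8, the most abundant member in AE-PF lung. RefSeq promoters (build GRCm38.p6) were found for 8 of the 10 members, all but Itgae and Ccr7. Each run below is the 250 bases before the annotated start, on the strand of the gene, 5′ to 3′. They lie at chr8:3748985-3749234 (minus strand, Cd209a), chr9:123862030-123862279 (minus strand, Xcr1), chr5:147400490-147400739 (minus strand, Flt3) and chr8:120736108-120736357 (plus strand, Irf8).
Cd209a: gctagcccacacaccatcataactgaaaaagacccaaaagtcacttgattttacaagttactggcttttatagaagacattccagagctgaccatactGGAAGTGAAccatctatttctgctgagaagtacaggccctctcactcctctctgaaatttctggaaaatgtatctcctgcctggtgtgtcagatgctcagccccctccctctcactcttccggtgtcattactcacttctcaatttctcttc
Xcr1: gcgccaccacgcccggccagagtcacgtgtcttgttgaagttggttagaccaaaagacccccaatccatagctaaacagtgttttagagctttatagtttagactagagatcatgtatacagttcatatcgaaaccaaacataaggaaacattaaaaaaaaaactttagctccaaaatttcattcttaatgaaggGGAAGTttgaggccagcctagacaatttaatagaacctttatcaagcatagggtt
Flt3: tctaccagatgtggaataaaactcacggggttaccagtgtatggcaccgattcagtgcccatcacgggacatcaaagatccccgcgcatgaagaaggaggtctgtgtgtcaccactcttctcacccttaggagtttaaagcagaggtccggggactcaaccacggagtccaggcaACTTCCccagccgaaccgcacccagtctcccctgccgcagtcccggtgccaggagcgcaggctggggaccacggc
Irf8: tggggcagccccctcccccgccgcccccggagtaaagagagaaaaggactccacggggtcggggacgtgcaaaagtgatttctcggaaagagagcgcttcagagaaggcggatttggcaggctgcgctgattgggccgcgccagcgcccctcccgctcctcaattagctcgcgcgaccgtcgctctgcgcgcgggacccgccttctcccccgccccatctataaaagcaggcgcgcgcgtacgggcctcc
Capitals mark letters of motifs searched on both strands in the window from 250 bases before to 50 after the start. The PU.1 core GGAAGT, a binding sequence of the myeloid factor Spi1, was in the windows of 5 of the 8 members (Batf3, Flt3, Siglech, Cd209a and Xcr1) and in 23.8% of 32851 promoters. Counted from the start, with -1 as the base before it, the match begins at -152 in Cd209a, at -55 in Xcr1 and, on the opposite strand, at -75 in Flt3. In Cd209a it overlaps a match to the shortened ETS-IRF composite GGAANNGAA, which 8.2% of promoters held, and a second match to that composite begins at -8 and runs past the printed stretch. The shortened interferon response motif GAAANNGAA was in the Clec9a window (8.6% of promoters), the AP-1 motif TGANTCA in the Zbtb46 window (7.8%) and the shortened NF-kB motif GGGANTTCC in none of the members (1.7%). Neither Irf8 window held any of the motifs. These matches describe the letters only.

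The comparison of AE-PF with saline asks how the BLM and LPS challenge left the dendritic cell genes. Of the 10 members, Batf3 and Itgae were higher in AE-PF and Cd209a and Zbtb46 were lower, so that 4 were called against 56.6% of all genes tested. The 2 higher calls compare with 26.4% of all genes, and the 2 lower calls with 30.2%. The groups did not overlap for 3 members (Batf3, Cd209a and Zbtb46), against 54.3% of all genes. The count of calls lies below the share over all genes. The median difference of the members was 0.42, beside -0.03 over all genes. In whole-lung RNA, fewer cells of a type and less RNA per cell cannot be told apart.

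The comparison of ND-RHL with AE-PF asks what the liposome treatment changed after the challenge. Clec9a and Cd209a were higher in ND-RHL and Batf3 was lower, so that 3 of 10 members were called against 41.8% of all genes. The share of all genes called higher was 24.3% and that called lower was 17.4%. The groups did not overlap for Clec9a and Batf3, against 36.8% of all genes. The median difference was 0.19 for the members and 0.06 for all genes. The AE-PF libraries enter both comparisons, so the differences against saline and those under treatment are not independent of each other.

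The comparison of ND-RHL with saline asks how far treated lung stood from unchallenged lung. Here Xcr1, Clec9a, Ccr7 and Batf3 were higher and Zbtb46 was lower, 5 of 10 members against 21.9% of all genes. The share of all genes called higher was 13.3% and that called lower was 8.65%. The groups did not overlap for 9 of 10 members, all but Siglech, against 29.9% of all genes. The median difference was 0.62 for the members and 0.03 for all genes. These calls depend on which libraries share the estimate of the spread. With the ND-RHL and saline libraries alone in the fit, 9 members were called (7 higher and 2 lower) against 25.3% of all genes, and in the fit of all groups with the replicate number as a block 3 were called against 19.2%. In that blocked fit Xcr1 (limma adjusted p = 0.0615) and Clec9a (limma adjusted p = 0.0507) no longer passed, while the blocked fit of the 2 groups alone called 9 against 22.1% of all genes.

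**Figure D1:**
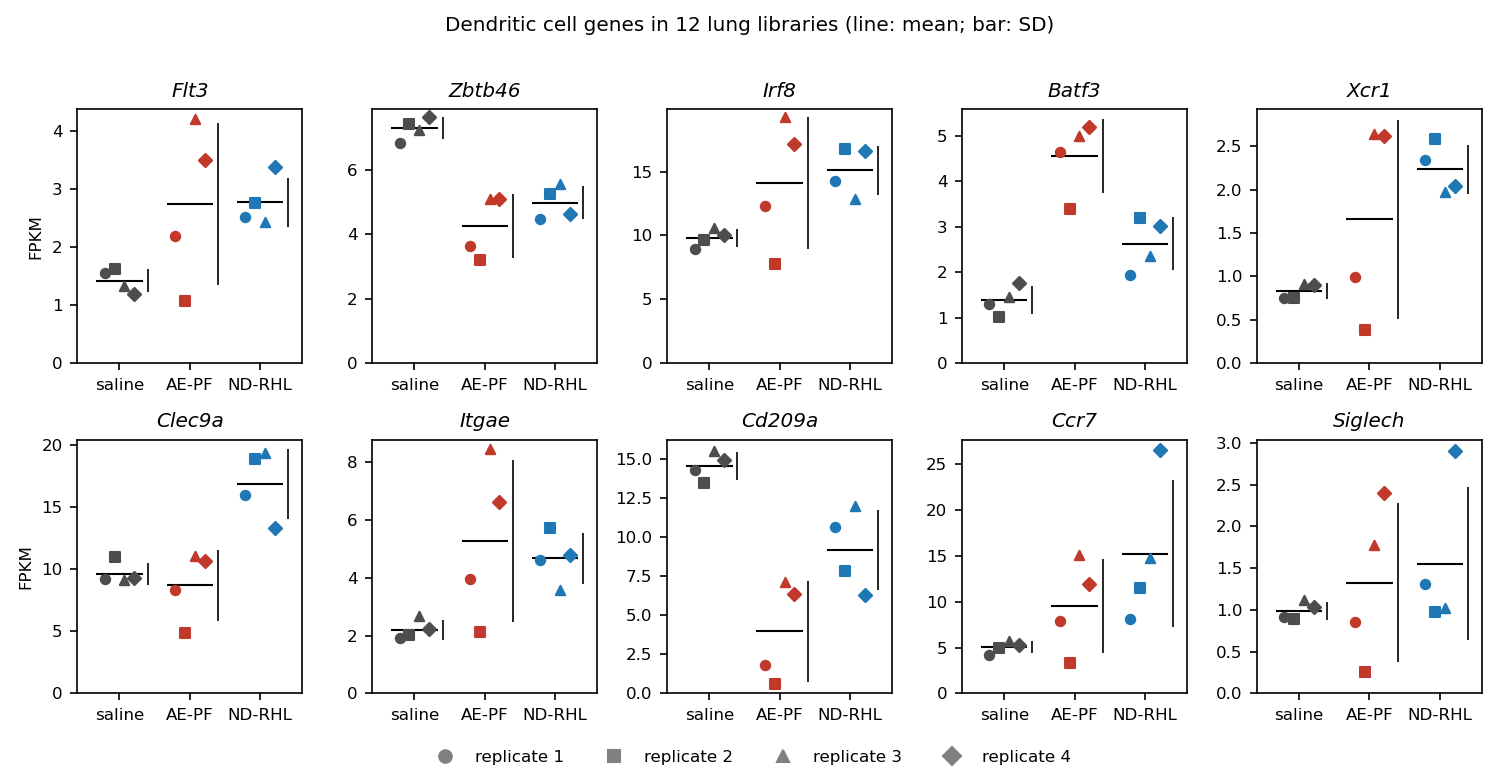
FPKM of the 10 dendritic cell genes in each library, 1 panel per gene, with 4 points for each of the saline, AE-PF and ND-RHL groups, a line at the mean and a bar for the SD. Cd209a falls from about 14.5 FPKM in saline to 3.98 in AE-PF, Batf3 is highest in AE-PF and Clec9a is highest in ND-RHL, while AE-PF points of most genes spread more widely than those of the other groups.

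Flt3 encodes the receptor tyrosine kinase that drives dendritic cell development from marrow precursors. Its values were 1.55, 1.62, 1.33 and 1.19 FPKM in saline libraries 1 to 4, 2.197, 1.08, 4.22 and 3.498 FPKM in AE-PF libraries 1 to 4, and 2.53, 2.77, 2.44 and 3.38 FPKM in ND-RHL libraries 1 to 4. Every ND-RHL library was above every saline library, whereas AE-PF library 2 was below all saline libraries and the other AE-PF libraries were above them. The difference was 0.55 (SE 0.23, limma adjusted p = 0.0628) for AE-PF against saline and 0.64 (SE 0.23, limma adjusted p = 0.0707) for ND-RHL against saline, neither past the threshold. With the FPKM totals of all libraries made equal the first was 0.64 and passed (limma adjusted p = 0.039). Without AE-PF library 2, Flt3 was called higher in AE-PF than in saline (0.80, limma adjusted p = 0.00144) and in ND-RHL than in saline (limma adjusted p = 0.00952), the latter also without AE-PF library 3 (limma adjusted p = 0.043). Flt3 in ND-RHL and in AE-PF differed by 0.09 with a 95% interval from -0.42 to 0.60.

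Flt3l, the ligand that binds Flt3, moved clearly between the groups. It stood at 7.71, 8.92, 6.48 and 6.70 FPKM in saline, 1.91, 1.80, 2.97 and 2.72 FPKM in AE-PF and 6.59, 6.05, 6.83 and 5.38 FPKM in ND-RHL. All AE-PF libraries were below all others, and ND-RHL overlapped saline. Flt3l was lower in AE-PF than in saline by 1.34 on the log2 scale (-1.34, SE 0.13, limma adjusted p = 1.11e-05) and higher in ND-RHL than in AE-PF by 1.12 (SE 0.13, limma adjusted p = 0.000111). ND-RHL and saline differed by -0.22 (limma adjusted p = 0.238). Receptor and ligand transcripts thus had different orders of group means, since Flt3 had its lowest mean in saline and Flt3l its lowest in AE-PF.

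Among the transcription factors, Batf3 was the member with the smallest adjusted p in AE-PF lung. Batf3 is a basic leucine zipper factor that pairs with Irf8 in cDC1 cells and is also made by activated T cells and macrophages. It stood at 1.3005, 1.01, 1.46 and 1.76 FPKM in saline, 4.64, 3.40, 5.00 and 5.19 FPKM in AE-PF and 1.93, 3.18, 2.36 and 3.02 FPKM in ND-RHL. The 3 groups did not overlap: saline was lowest, ND-RHL intermediate and AE-PF highest. Batf3 was higher in AE-PF than in saline by 1.22 (SE 0.14, limma adjusted p = 4.25e-05). Treated lung had less of it than untreated AE-PF lung (-0.62, SE 0.14, limma adjusted p = 0.00605), and still higher in ND-RHL than in saline by 0.60 (SE 0.14, limma adjusted p = 0.0148). Most monocyte and macrophage markers moved with it: 13 of 15 were called higher in AE-PF than in saline. Under treatment 10 of 15 were lower and 1 higher than in AE-PF, and 9 of 15 were higher in ND-RHL than in saline. Their part in the Batf3 values was not tested.

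Irf8, the interferon regulatory factor that sets cDC1 and plasmacytoid fate and is also read in B cells and monocytes, had the highest mean of the members in AE-PF. It stood at 8.96, 9.61, 10.6 and 9.99 FPKM in saline, 12.3, 7.74, 19.3 and 17.1 FPKM in AE-PF and 14.2, 16.8, 12.8 and 16.6 FPKM in ND-RHL. All ND-RHL libraries were above all saline libraries, and AE-PF spanned both, with library 2 below saline. The differences were 0.42 (SE 0.21, limma adjusted p = 0.116) for AE-PF against saline and 0.57 (SE 0.21, limma adjusted p = 0.0771) for ND-RHL against saline, neither called. Without AE-PF library 2 the first was 0.66 and was called (limma adjusted p = 0.00235), as was the second (limma adjusted p = 0.00914). Group means of Irf8 were 9.79, 14.1 and 15.1 FPKM in saline, AE-PF and ND-RHL, and those of its partner Batf3 were 1.38, 4.55 and 2.62 FPKM.

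Zbtb46, the zinc finger factor of conventional dendritic cells and of endothelium, was lower after the challenge with and without treatment. It stood at 6.83, 7.41, 7.24 and 7.65 FPKM in saline, 3.63, 3.21, 5.10 and 5.10 FPKM in AE-PF and 4.47, 5.23, 5.56 and 4.62 FPKM in ND-RHL. Every saline library was above every other library, and AE-PF and ND-RHL overlapped. Zbtb46 was lower in AE-PF than in saline (-0.67, SE 0.12, limma adjusted p = 0.000584) and lower in ND-RHL than in saline (-0.48, SE 0.12, limma adjusted p = 0.0167). The difference between ND-RHL and AE-PF was 0.20, with a 95% interval from -0.06 to 0.46 (limma adjusted p = 0.196). Endothelial markers also fell: 9 of 10 were called lower and 1 higher in AE-PF than in saline. In ND-RHL 8 of 10 were higher and 1 lower than in AE-PF, and 1 of 10 was lower than in saline. The mean log2 level of those markers was 6.42 to 6.62 in saline, 5.40 to 5.82 in AE-PF and 6.04 to 6.56 in ND-RHL libraries. What share of the Zbtb46 signal came from endothelium was not tested.

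The surface genes of cDC1 cells were led by Clec9a, a C-type lectin that recognises actin exposed on dead cells. Clec9a stood at 9.22, 10.9, 9.08 and 9.25 FPKM in saline, 8.28, 4.84, 11.0 and 10.7 FPKM in AE-PF and 15.9, 18.9, 19.3 and 13.3 FPKM in ND-RHL. Every ND-RHL library was above every library of the other groups. Clec9a was higher in ND-RHL than in AE-PF by 0.92 (SE 0.20, limma adjusted p = 0.00438) and higher in ND-RHL than in saline by 0.74 (SE 0.20, limma adjusted p = 0.0254). AE-PF and saline differed by -0.18, with a 95% interval from -0.63 to 0.26 (limma adjusted p = 0.465). Clec9a lies at chr6:129408862-129424763 (GRCm38, plus strand) and shares 184 exonic bases with Clec1b on the same strand. Clec1b stood at 1.31 to 3.18 FPKM and was highest in ND-RHL libraries, and the treatment of fragments in the shared bases is unknown from the labels. The Clec9a call against saline was lost without saline library 1, 3 or 4 or ND-RHL library 2 or 3 (limma adjusted p up to 0.0657), while the call against AE-PF held without each library in turn.

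Xcr1 encodes the receptor for the chemokine Xcl1, which CD8 T cells and natural killer cells make. It stood at 0.746, 0.751, 0.913 and 0.906 FPKM in saline, 0.989, 0.385, 2.64 and 2.62 FPKM in AE-PF and 2.34, 2.59, 1.98 and 2.04 FPKM in ND-RHL. All ND-RHL libraries were above all saline libraries, while AE-PF held both the lowest and the highest values of the series. Xcr1 was higher in ND-RHL than in saline by 0.82 (SE 0.26, limma adjusted p = 0.044), a call that was lost without any 1 of the 8 saline and ND-RHL libraries or AE-PF library 1 (limma adjusted p up to 0.1). The differences of AE-PF against saline (0.43, limma adjusted p = 0.185) and of ND-RHL against AE-PF (0.40, limma adjusted p = 0.244) were not called. The ligand Xcl1 missed the filter. It was listed at 0 in saline library 1 and AE-PF library 2, at no more than 0.12 FPKM in the other saline libraries, at 0.449, 1.13 and 1.37 FPKM in AE-PF libraries 1, 3 and 4 and at 0.47 to 1.32 FPKM in ND-RHL.

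Itgae encodes the CD103 chain, which pairs with Itgb7 to bind Cdh1 (E-cadherin) on epithelium and is also carried by resident T cells. Itgae stood at 1.91, 2.00, 2.67 and 2.22 FPKM in saline, 3.96, 2.11, 8.44 and 6.61 FPKM in AE-PF and 4.59, 5.73, 3.57 and 4.78 FPKM in ND-RHL. AE-PF library 2 lay among the saline libraries, and the other AE-PF and all ND-RHL libraries were above saline. It was called higher in AE-PF than in saline (0.86, SE 0.28, limma adjusted p = 0.0216), but the call was lost without saline library 1 (limma adjusted p = 0.052), AE-PF library 3 (limma adjusted p = 0.0561) or AE-PF library 4 (limma adjusted p = 0.0603). ND-RHL exceeded saline by 0.82 (limma adjusted p = 0.0575), which was not called, but passed without AE-PF library 2 or 3 (limma adjusted p = 0.00989 and 0.0321).

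The partners of Itgae moved otherwise. Itgb7 stood at 13.0 ± 0.833 FPKM in saline, 12.8 ± 6.77 in AE-PF and 22.0 ± 1.93 in ND-RHL (SD, n = 4), and was higher in ND-RHL than in AE-PF by 0.89 (limma adjusted p = 0.0309). That difference was 0.52 and was not called without the 2 libraries that stood apart (limma adjusted p = 0.0898), while the difference from saline was (0.66, limma adjusted p = 0.0452). The AE-PF values of Itgb7 ran from 5.41 FPKM in library 2 to 20.03 FPKM in library 3. Cdh1 fell from 97.6 ± 3.34 FPKM in saline to 59.7 ± 14.5 in AE-PF (SD, n = 4), a difference of -0.74 (limma adjusted p = 0.00195), and stood at 84.5 ± 7.04 in ND-RHL, higher than in AE-PF by 0.53 (limma adjusted p = 0.0189). The plot of receptors and partners shows Itgae beside Itgb7 by library.

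**Figure D2:**
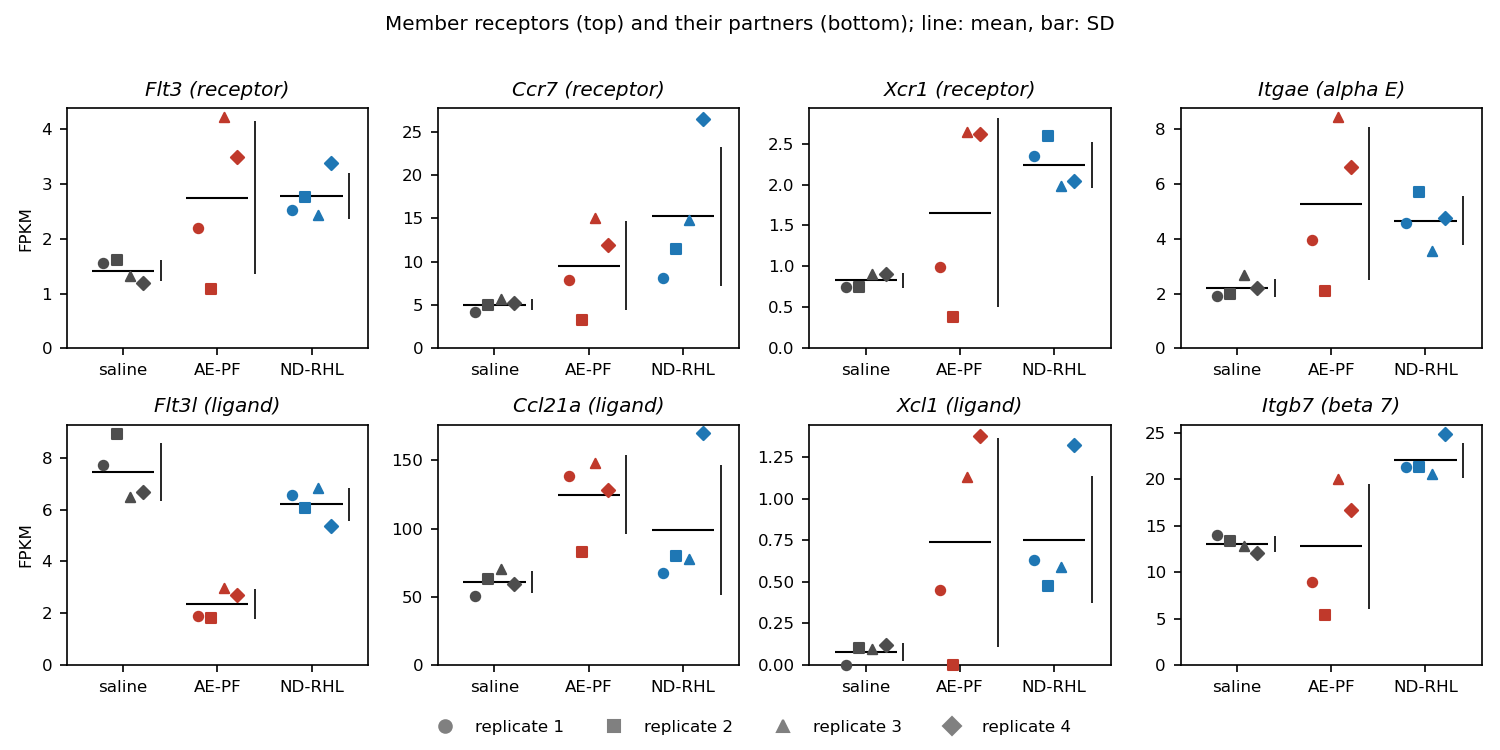
FPKM of the member receptors Flt3, Ccr7, Xcr1 and Itgae (top) and of their partners Flt3l, Ccl21a, Xcl1 and Itgb7 (bottom) in each library of the 3 groups, with a line at the mean and a bar for the SD. Flt3l is lowest in AE-PF, Ccl21a has its highest mean there (125 FPKM), and Itgb7 is above 20 FPKM in every ND-RHL library, while marker shapes show AE-PF library 2 at the bottom of its group in all panels.

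Cd209a, a lectin of the DC-SIGN family carried by cDC2 and monocyte-derived dendritic cells, showed the largest difference among the members. It stood at 14.3, 13.4, 15.5 and 14.9 FPKM in saline, 1.82, 0.629, 7.09 and 6.39 FPKM in AE-PF and 10.6, 7.82, 12.0 and 6.28 FPKM in ND-RHL. Every saline library was above every other library. Within AE-PF, libraries 1 and 2 (49 and 18 fragments) were far below libraries 3 and 4 (190 and 183 fragments), and ND-RHL libraries 2 and 4 lay close to the latter. Cd209a was lower in AE-PF than in saline (-1.93, SE 0.43, limma adjusted p = 0.00284). It was higher in ND-RHL than in AE-PF by 1.28 (SE 0.43, limma adjusted p = 0.0337), a call that was lost without any 1 of 5 libraries (AE-PF 1 and 2 and ND-RHL 1, 2 and 3, limma adjusted p up to 0.0949). The difference of ND-RHL from saline was -0.65 (limma adjusted p = 0.312) and was called with the 2 groups alone in the fit (limma adjusted p = 0.026).

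Ccr7, the receptor that leads mature dendritic cells to lymph nodes and is also carried by naive T and B cells, stood at 4.18, 4.99, 5.72 and 5.26 FPKM in saline, 7.87, 3.30, 15.1 and 12.0 FPKM in AE-PF and 8.11, 11.5, 14.8 and 26.5 FPKM in ND-RHL. All ND-RHL libraries were above all saline libraries, with library 4 far above the rest, and AE-PF spanned both. Ccr7 was higher in ND-RHL than in saline by 1.31 (SE 0.40, limma adjusted p = 0.0369). It was not called in AE-PF against saline (0.65, limma adjusted p = 0.182) or in ND-RHL against AE-PF (0.66, limma adjusted p = 0.203). ND-RHL library 4 also held the highest levels of some lymphoid tissue genes. The stromal chemokine Ccl19 stood at 14.9 FPKM there against 0.643 to 1.43 in the other ND-RHL libraries. Glycam1, a gene of lymph node vessels, stood at 4.69 FPKM against at most 0.129. Other genes of that list, Cxcl13, Rag2 and Ptcra, did not peak there. Cxcl13 stood at 18.6 FPKM against 21.4 FPKM in ND-RHL library 1 and 34.1 to 124 FPKM in AE-PF. Without ND-RHL library 4 the Ccr7 difference was 1.02 and was not called (limma adjusted p = 0.0885). The call was also lost without any 1 of the 4 saline libraries or ND-RHL library 2 or 3 (limma adjusted p 0.059 to 0.0884). What part of the Ccr7 signal in ND-RHL library 4 came from lymphoid tissue was not tested.

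Of the ligands of Ccr7, Ccl21a was called and Ccl19 was not. Ccl21a stood at 60.7 ± 8.16 FPKM in saline, 125 ± 29.0 in AE-PF and 98.8 ± 47.8 in ND-RHL (SD, n = 4), higher in AE-PF than in saline by 1.00 (limma adjusted p = 0.00801). ND-RHL library 4 stood at 170 FPKM and the other ND-RHL libraries at 67.5 to 80.1 FPKM. Without it and AE-PF library 2, Ccl21a was called lower in ND-RHL than in untreated AE-PF lung (-0.88, limma adjusted p = 0.000551), which it was not with all libraries (-0.40, limma adjusted p = 0.251). Ccl21a, Ccl21b and Ccl21c are near-identical copies, so the split of fragments between them is uncertain. Ccl19 stood at 0.532 to 0.744 FPKM in saline and 0.191 to 1.53 FPKM in AE-PF.

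Siglech, the sialic acid-binding lectin of plasmacytoid dendritic cells, was called in no comparison. It stood at 0.914, 0.893, 1.11 and 1.03 FPKM in saline, 0.851, 0.262, 1.78 and 2.40 FPKM in AE-PF and 1.32, 0.970, 1.02 and 2.91 FPKM in ND-RHL. The groups overlapped in every comparison, and the highest value was that of ND-RHL library 4. The 95% interval of the difference ran from -0.52 to 0.77 for AE-PF against saline and from -0.34 to 0.95 for ND-RHL against saline.

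**Figure D3:**
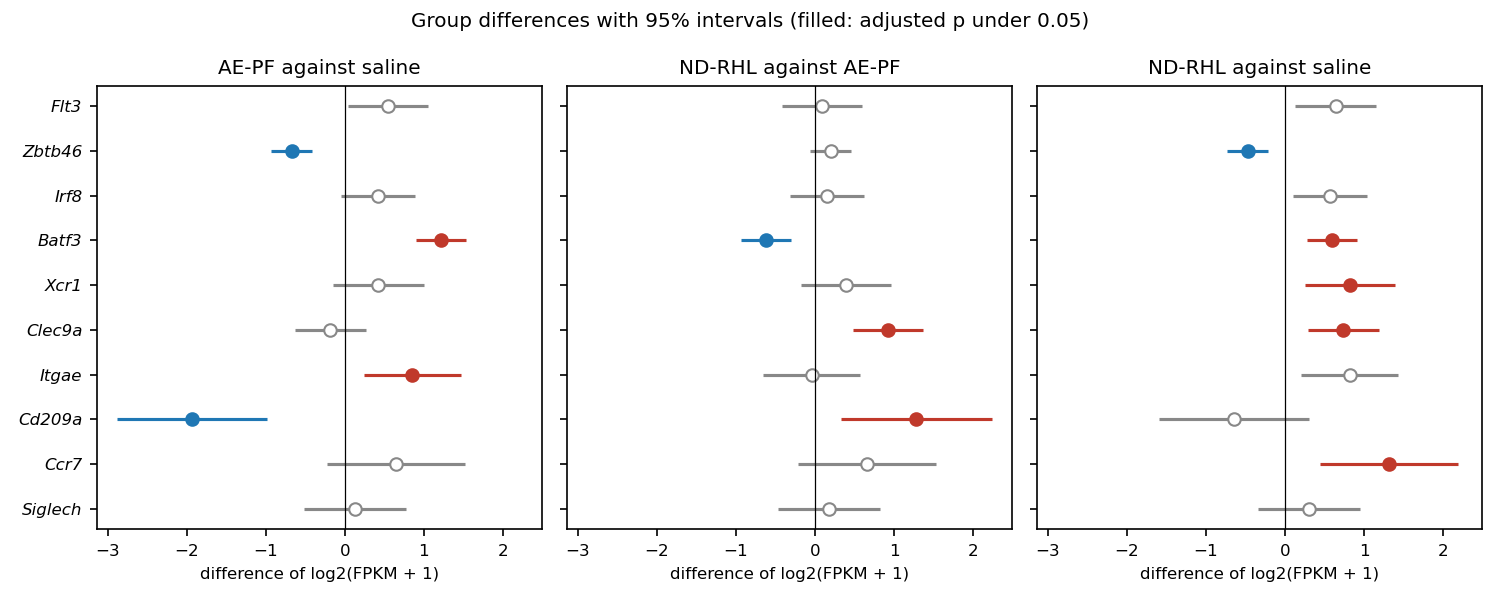
Difference between groups on the log2(FPKM + 1) scale for each of the 10 genes in 3 comparisons, with the 95% interval of the limma fit and filled points where the adjusted p is under 0.05. Batf3 and Itgae lie above 0 and Cd209a and Zbtb46 below 0 in AE-PF against saline, and intervals for Siglech cross 0 in all comparisons.

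The AE-PF libraries split in the same way for the members. Library 2 was the lowest of the 4 for all 10 genes, as it was for 40.2% of the 15164 genes tested. Libraries 3 and 4 were both above libraries 1 and 2 for all 10 genes, as they were for 41.2% of genes tested. Library 3 was the highest for 7 members and library 4 for 3. Within AE-PF the SD reached 81.2% of the mean for Cd209a, 71.9% for Siglech and 69.2% for Xcr1, against 6.10%, 10.5% and 11.2% in saline. Among other leukocyte lists, those of B, T and natural killer cells split in the same way. The list of genes read in all leukocytes did so too, at a mean log2 level of 5.33, 4.79, 5.57 and 5.54. The mean log2 level of B cell markers was 1.74, 1.26, 2.64 and 2.504 in AE-PF libraries 1 to 4, and that of T cell markers was 1.81, 1.36, 2.52 and 2.42. Natural killer cell markers stood at 0.908, 0.577, 1.75 and 1.66, and genes of class II antigen presentation at 4.88, 3.90, 5.70 and 5.56. Monocyte and macrophage markers varied less, at 5.80, 5.61, 5.81 and 5.82. Neutrophil markers went otherwise, at 3.06, 3.41, 2.90 and 3.10 with library 2 highest. The mean of alveolar macrophage markers also did, at 3.71, 3.34, 3.32 and 3.19, but the genes of that list were mixed. Siglecf, Ear1, Ear2, Car4, Plet1 and Krt79 were lowest in library 2, Car4 at 36.0, 11.9, 41.8 and 39.9 FPKM. Marco, Chil3, Fabp4 and Pparg were not, Marco at 9.52, 24.5, 1.90 and 1.72 FPKM. Fkbp5, a glucocorticoid-induced gene, stood at 30.2, 42.8, 12.0 and 11.3 FPKM, highest in libraries 2 and 1, and at 2.04 to 4.01 FPKM in ND-RHL and 2.19 to 2.71 FPKM in saline. The part of leukocyte content, of other tissue or of glucocorticoid exposure in this split was not tested.

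Leaving out AE-PF library 2 raised the calls among the members from 4 to 8 in AE-PF against saline (6 higher and 2 lower), against 54.4% of all genes in that fit. The added calls were Flt3, Irf8, Xcr1 (0.70, limma adjusted p = 0.00921) and Ccr7 (1.03, limma adjusted p = 0.0199). Calls in ND-RHL against saline rose from 5 to 8 without that library, against 26.1% of all genes. The library enters that comparison through the shared spread. Leaving out AE-PF library 2 and ND-RHL library 4 together also gave 8 calls in each of these comparisons, against 57.8% and 24.3% of all genes.

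**Figure D4:**
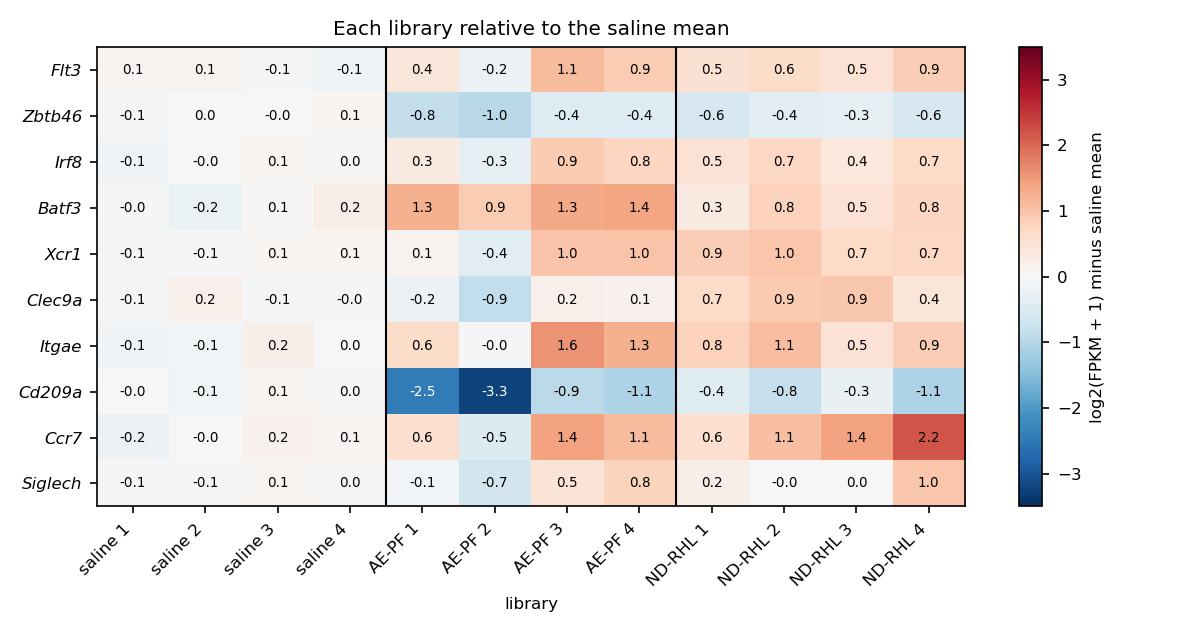
Difference of each library from the mean of the saline libraries, on the log2(FPKM + 1) scale, for the 10 genes (rows) and 12 libraries (columns). AE-PF library 2 has the lowest AE-PF value in every row, AE-PF libraries 3 and 4 are above libraries 1 and 2 throughout, and the Cd209a row is below saline in all challenged libraries.

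Deviations of the members from their group means went together across the 12 libraries. The group-centred correlation was highest for Itgae and Irf8 (Pearson r = 0.984), followed by Xcr1 and Itgae (r = 0.957) and Xcr1 and Irf8 (r = 0.942), and lowest for Cd209a and Batf3 (r = 0.374). These are descriptions over libraries that share their tissue makeup and depth. The SD as a share of the mean was largest in AE-PF for every member but Batf3, where it was 17.7%, against 22.6% in saline and 22.3% in ND-RHL. Over all libraries without centring, the genes most like Irf8 were Il12b (r = 0.985), a cytokine subunit of mature dendritic cells, Wdfy4 (r = 0.981), a gene cDC1 cells need for cross-presentation, and Kmo (r = 0.979). Those most like Flt3 were Kmo (r = 0.974), Ccdc88b (r = 0.972) and Gcsam (r = 0.97). Batf3 was most like Rab8b (r = 0.995), Tnfrsf1b (r = 0.982) and Capza1 (r = 0.981). Cd209a was most like Apln (r = 0.984), an endothelial peptide gene, and Zbtb46 was most like Stim2, Tal1 and Ppm1f (r = 0.985 each). Clec9a was most like Clec1a (r = 0.974), Zfp365 and Nkg7 (r = 0.97 each), and Itgae most like Phf11a (r = 0.973). Xcr1 was most like Fgd2 (r = 0.977), Ccr7 most like Gimap9 (r = 0.973) and Siglech most like Pglyrp2 (r = 0.95).

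The order of the members by FPKM level changed between groups. Cd209a led in saline with 14.5 FPKM, followed by Irf8 with 9.79 and Clec9a with 9.62, which overlapped. In AE-PF Irf8 led with 14.1 FPKM, Cd209a was in place 7 with 3.98 FPKM, and every neighbouring pair overlapped. In ND-RHL Clec9a led with 16.8 FPKM, Ccr7 (15.2) and Irf8 (15.1) overlapped it in turn, and Cd209a was in place 4 with 9.17 FPKM. Xcr1 was last in saline with 0.829 FPKM and Siglech was last in AE-PF and ND-RHL with 1.32 and 1.55 FPKM.

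Other genes of each dendritic cell kind were counted from lists chosen with earlier results of these data known. Of 15 tested cDC1 genes beyond the members, 4 were higher and 5 lower in AE-PF than in saline, with a median of 0.27 beside -0.03 over all genes. The higher genes were Cxcl9, Ifi205, Ppt1 and Rab7b, and the lower ones were Cadm1, Cd24a, Cd36, Itga8 and Snx22. Rab7b, a small GTPase of endosomes, rose from 3.56 ± 0.363 to 9.69 ± 0.909 FPKM (SD, n = 4; 1.23, limma adjusted p = 4.72e-06), and Itga8, an integrin chain that lung mesenchyme also expresses, fell from 56.4 ± 4.03 to 23.9 ± 2.91 FPKM (SD, n = 4; -1.21, limma adjusted p = 1.6e-05). In ND-RHL against AE-PF 7 were higher, Snx22 and Itga8 among them, and 2 were lower, Rab7b and Ifi205. In ND-RHL against saline 5 were higher: Gcsam, Ppt1, Rab7b, Tlr11 and Tlr3. With the 2 libraries that stood apart left out, there were 8 higher and 5 lower in AE-PF against saline, 6 higher and 4 lower in ND-RHL against AE-PF and 8 higher in ND-RHL against saline. Tlr11, a toll-like receptor for profilin, stood at 0.489 ± 0.0395 FPKM in saline and 1.45 ± 0.28 FPKM in ND-RHL (SD, n = 4; 0.71, limma adjusted p = 0.00817).

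Of 13 tested genes of cDC2 and monocyte-derived dendritic cells, 5 were higher and 3 lower in AE-PF than in saline, ND-RHL had 2 higher and 5 lower than AE-PF, and 4 were higher in ND-RHL than in saline. Clec4a2, an inhibitory lectin of myeloid cells, rose from 2.32 ± 0.146 to 12.8 ± 1.65 FPKM in AE-PF (SD, n = 4; 2.05, limma adjusted p = 7.55e-07) and stood at 4.11 ± 0.847 FPKM in ND-RHL (-1.44 against AE-PF, limma adjusted p = 1.98e-05). Itgam and Sirpa, which monocytes and macrophages also carry, rose by 1.54 and 1.13 with limma adjusted p = 8.68e-06 and 1.21e-05. Clec4a2, Itgam and Sirpa thus rose while Cd209a fell, but other genes of the list fell as well. Klf4 stood at 70.5 to 81.8 FPKM in saline and 39.7 to 57.1 FPKM in AE-PF libraries. Dtx1 stood at 1.12 to 1.60 and 0.431 to 0.897 FPKM, and Ifitm6 at 3.70 to 6.63 and 2.29 to 3.55 FPKM, in the same groups. Of this list, Clec4a4 and Fcer1a were listed at 0 in some library.

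Of 24 tested genes of mature and migratory dendritic cells, 12 were higher and 2 lower in AE-PF than in saline (median 0.49 beside -0.03 over all genes). Fscn1, which bundles actin in the dendrites of mature cells, rose from 5.64 ± 0.187 to 32.99 ± 4.28 FPKM (SD, n = 4; 2.35, limma adjusted p = 2.81e-05). The costimulatory ligands Cd86 (1.58, limma adjusted p = 6.96e-06) and Cd80 (1.11, limma adjusted p = 5.06e-06) rose as well, and macrophages also express them. Genes of the list differed in AE-PF library 2. Fscn1 (27.1 FPKM) and Marcksl1 (30.2 FPKM) stood above all saline libraries there, whereas Ccl22 (2.07 FPKM) and Cd83 (2.75 FPKM) stood below all of them. In ND-RHL against AE-PF 2 of 24 were higher and 8 lower, Cd80 among the lower (-1.01, limma adjusted p = 3.6e-05) and the chemokine Ccl5 among the higher (1.79, limma adjusted p = 0.00282). In ND-RHL against saline 7 were higher, with Cd86 at 1.03 (limma adjusted p = 0.00087). The counts without the 2 libraries that stood apart were 20 higher and 1 lower, 2 higher and 11 lower, and 10 higher in these comparisons. Monocyte and macrophage markers moved the same way, as given beside Batf3. All 9 tested natural killer cell markers were higher beside Ccl5 in ND-RHL against AE-PF. The part of any of these cells was not tested.

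Of 14 tested plasmacytoid genes beyond Siglech, 5 were higher and 4 lower in AE-PF than in saline, ND-RHL had 4 higher and 4 lower than AE-PF, and 5 were higher in ND-RHL than in saline. Tlr7, a sensor of single-stranded RNA that macrophages also use, rose from 1.83 ± 0.424 to 8.63 ± 1.89 FPKM in AE-PF (SD, n = 4; 1.76, limma adjusted p = 3.86e-06), and the inhibitory receptor Lair1 from 0.65 ± 0.0664 to 5.13 ± 0.663 FPKM (SD, n = 4; 1.89, limma adjusted p = 7.55e-07). Other genes of the list fell. Atp1b1 stood at 93.02 to 102.58 FPKM in saline and 60.89 to 75.41 FPKM in AE-PF libraries. Cox6a2 stood at 17.54 to 29.495 and 2.11 to 9.604 FPKM in the same groups. Pltp was at least 125.35 FPKM in every saline library and at most 87.2 FPKM in every AE-PF library. Cox6a2, which heart and skeletal muscle also express, was higher in ND-RHL than in AE-PF (2.12, limma adjusted p = 0.00176), where 7 of 8 cardiac muscle markers were higher too. Of 18 regulators of the lineage, 8 were higher and 6 lower in AE-PF than in saline. Spi1, which encodes PU.1, rose from 12.5 ± 1.58 to 25.1 ± 2.84 FPKM (SD, n = 4; 0.95, limma adjusted p = 1.67e-05) and was lower in treated than in untreated AE-PF lung (-0.50, limma adjusted p = 0.00223). Nfil3, a factor that cDC1 precursors need, was lower in ND-RHL than in saline (-1.05, limma adjusted p = 0.00158).

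Other leukocyte markers give the cell background of the members. Of 8 genes read in all leukocytes, 7 were higher in AE-PF and 8 in ND-RHL than in saline. Of 17 T cell markers, 2 were higher and 1 lower in AE-PF than in saline, 7 were higher in ND-RHL than in AE-PF and 13 were higher in ND-RHL than in saline. All 11 B cell markers and all 9 tested natural killer cell markers were higher in ND-RHL than in AE-PF, and 6 of each were higher in ND-RHL than in saline. In AE-PF against saline 7 of 9 neutrophil markers were lower and 1 higher (median -1.16), 5 of 10 alveolar macrophage markers were lower (median -0.66) and 3 of 9 natural killer cell markers were lower (median -0.48). When the 2 libraries that stood apart were left out, 12 of 17 T cell markers were higher and 1 lower in AE-PF than in saline, and 3 were higher and 1 lower in ND-RHL against AE-PF. In that fit 9 of 11 B cell and 8 of 9 natural killer cell markers were higher in ND-RHL than in AE-PF, 3 of 8 genes of all leukocytes were lower, and 6 B cell markers were higher in ND-RHL than in saline. T and B cell markers were thus called higher beside Ccr7, Clec9a and Xcr1 in ND-RHL against saline, and the part of those cells in the member values was not tested.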

How the data were processed

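Lung RNA of 12 samples in 3 groups of 4 was analysed, with groups and replicate numbers from the sample titles. Per the labels' protocols, polyadenylated RNA was captured and sequenced on a DNBSEQ-G400 instrument. The authors deposited 1 table of FPKM values for 35599 genes. Builds GRCm38 and mm10 appear in the submitters' processing notes. The submitters' processing notes also list, with no role for any, the tools STAR 2.7.9a, DESeq2 1.30.1, Trim Galore 0.6.6, Subread 2.0.1 with featureCounts, and FastQC. The strand setting and the handling of reads that match several genes are not given in the sources used here. Fragments were recovered from the FPKM values: all 35599 genes gave whole fragments within 1e-05, with totals of 16152379 to 21667129, and gene lengths of the members equalled their GENCODE exon lengths.

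The main test was run in R 4.3.3 with limma 3.58.1 and its variance trend. It took log2(FPKM + 1) values, all 12 libraries in 1 fit (9 residual degrees of freedom), genes of at least 1 FPKM in at least 4 libraries (15164) and Benjamini-Hochberg adjustment, 2-sided, at 0.05. The code was tested on simulated data. The members and lists were chosen with earlier results of these data known. Named genes were the members, their direct partners and, of each list, up to 3 (or, for other cell types, 2) called genes with the smallest p per comparison. Genes outside this rule, named as members of small counts or beside a library that stood apart, were chosen after their values were seen. Alternatives were other filters and pseudocounts, equal FPKM totals, limma-voom on the fragments, a replicate block, 2 groups only and leaving out libraries. Same-numbered saline and ND-RHL libraries deviated together (r = 0.397, 0.188, 0.114 and 0.173). Saline library 2 went best with ND-RHL library 3 (r = 0.316), however, and saline library 3 with ND-RHL library 2 (r = 0.275). The labels give no source of a pairing, so the main fit took no pairs and the replicate block was only an alternative. For the other pairs of groups the same-numbered r ran from -0.387 to 0.339. No 2 libraries of a group agreed within sampling noise. Coordinates are of GRCm38, matched by gene ID, since positions in the table were of another build. The 95% intervals of differences are those of the limma fit, from the spread between libraries, and the FPKM of 3 fragments covers counting error only.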

Additional observations from a re-analysis of the deposited data

Results flagged for a closer look

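The Clec9a value of saline library 2 stood apart from its group, at 10.9 FPKM against 9.08 to 9.25 FPKM in the other 3 saline libraries, a gap of 0.912 of the group's range where 0.829 is the limit for 4 samples. Among 30 groups of member values this was the 1 that passed, and chance passes about 1 group in 20.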

How the results depend on the processing

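Calls that held under every alternative run were Batf3, Cd209a and Zbtb46 in AE-PF against saline, Clec9a and Batf3 in ND-RHL against AE-PF, and Batf3 and Zbtb46 in ND-RHL against saline. No other scaling or filter turned the direction of a member. Leaving out 1 library at a time gave 3 to 8 calls in AE-PF against saline (1 to 6 higher), against 50.3% to 58.5% of all genes. In ND-RHL against AE-PF it gave 2 to 3 (1 to 2 higher), against 32.1% to 41.9%. In ND-RHL against saline it gave 2 to 8 (1 to 7 higher), against 13.4% to 26.1% (2032 to 3962 genes). Without AE-PF library 2 there were 8, 2 and 8 calls, against 54.4%, 37.3% and 26.1% of all genes.

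In AE-PF against saline, leaving out AE-PF library 2 with ND-RHL library 4, or AE-PF libraries 1 and 2, gave 8 calls (6 higher). The shares of all genes called in these fits were 57.8% and 46.8%. Clec9a turned to 0.043 without AE-PF library 2, alone or together with ND-RHL library 4, and to 0.16 without AE-PF libraries 1 and 2, and Siglech to -0.090 without AE-PF library 4. Over all libraries left out singly, Clec9a ran from -0.30 to 0.043 and Siglech from -0.090 to 0.39. In ND-RHL against AE-PF, 1 member was called higher with no filter, with a pseudocount and FPKM minimum of 0.1 and with 2 groups in the fit. The shares of all genes called there, in either direction, were 16.9%, 29.9% and 33%. Cd209a was the call lost (limma adjusted p 0.0105 to 0.0949 without 1 library). Without AE-PF libraries 1 and 2, 1 was higher and 3 lower among the members and 3979 of all genes (26.2%) were called. Flt3 was then at -0.37, Xcr1 at -0.17, Zbtb46 at -0.035, Siglech at -0.33 and Irf8 at -0.26. Turned directions were also Flt3 -0.17, Siglech -0.084 and Irf8 -0.085 without AE-PF library 2. Itgae turned to 0.20 and 0.09 without AE-PF libraries 3 and 4 and to 0.06 without ND-RHL library 3, and Siglech to -0.048 without ND-RHL library 4. Over all libraries left out singly, Flt3 ran from -0.17 to 0.28, Itgae from -0.34 to 0.20, Siglech from -0.084 to 0.39 and Irf8 from -0.085 to 0.32. With both AE-PF library 2 and ND-RHL library 4 out, Flt3 was at -0.24, Ccr7 at -0.014, Siglech at -0.31 and Irf8 at -0.13.

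In ND-RHL against saline, calls of Xcr1, Clec9a and Ccr7 were those lost. There 2 members were called (1 higher) with no filter, against 6.9% of all genes. Limma-voom on fragments called 3 (2 higher) against 19.9%, and the replicate block 3 (2 higher) against 19.2%. With 2 groups in the fit 9 were called (7 higher, 2 lower) against 25.3%, and with the replicate block there 9 (7 higher, 2 lower) against 22.1%. Without AE-PF libraries 1 and 2, 9 were called (7 higher, 2 lower) against 29.2%. With AE-PF library 2 and ND-RHL library 4 both out, 8 were called (7 higher) against 24.3%. The block changed no member's call in the other comparisons. Not every library correlated best with its own number. Alternatives that left out 1 library of a group shared the spread with the others. The 2-group fit with the block was added after seeing the data. The test for members under the filter was not run, since all passed. The cause of these changes was not tested.

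Equal FPKM totals moved the share of calls that were higher from 46.7% to 63.0% in AE-PF against saline and from 58.2% to 37.8% in ND-RHL against AE-PF (median over all genes -0.03 to 0.08, and 0.06 to -0.04), and limma-voom moved it from 60.5% to 49.4% in ND-RHL against saline. Siglech, Batf3 and Xcr1 rest on 16, 30 and 31 fragments in their lowest libraries. List counts and partner values that leave out the 2 libraries that stood apart were also added after seeing the data.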

Other observations

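Genes of antigen presentation were counted beside the members. Of 14 class II presentation genes, 2 were higher in AE-PF than in saline, both enzymes of antigen processing: Ctss rose from 109 ± 15.7 to 799 ± 123 FPKM (SD, n = 4; 2.86, limma adjusted p = 6.56e-06) and Ifi30 by 0.98 (limma adjusted p = 0.000374). In ND-RHL against saline 3 of 14 were higher, Ctss, H2-Eb2 and H2-Ob. In ND-RHL against AE-PF 2 of 14 were higher, H2-Ob and Cd1d1, and 2 were lower, Ctss (-1.17, limma adjusted p = 0.00389) and Ifi30. Cd1d1, though counted in this list, encodes a class I-like protein. H2-Ob, a chain that B cells and dendritic cells make to temper peptide loading, was higher in ND-RHL than in AE-PF by 1.62 (limma adjusted p = 0.00392). Of 16 class I and cross-presentation genes, ND-RHL had 6 higher and 1 lower than AE-PF, and 7 were higher in ND-RHL than in saline, among them B2m, the shared light chain, at 1849 ± 157 FPKM against 1005 ± 83.9 FPKM (SD, n = 4; 0.88, limma adjusted p = 0.0122). Leaving out the 2 libraries that stood apart (AE-PF 2, ND-RHL 4), 9 genes of the class II list and 8 of the class I list were higher in AE-PF than in saline. In ND-RHL against saline 11 and 12 were higher. In ND-RHL against AE-PF 2 genes of the class II list were then higher and 2 lower, and 4 of the class I list higher and 2 lower.

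The following ratios were chosen after the values were seen and carry no test. The ratio of Clec9a to Cd209a FPKM was 0.587 to 0.815 in saline, 4.55, 7.69, 1.56 and 1.67 in AE-PF libraries 1 to 4 and 1.502 to 2.41 in ND-RHL, so every challenged library was above every saline library. Per 100 FPKM of Ptprc, the gene of the pan-leukocyte protein CD45, Clec9a stood at 62.0 to 62.4 in all 4 AE-PF libraries, while its own FPKM there ran from 4.84 to 11.0. On the same scale Clec9a was at 71.5 to 111 in saline and 60.7 to 111 in ND-RHL. Cd209a per 100 FPKM of Ptprc was 116 to 139 in saline, 8.12 to 40.0 in AE-PF and 28.7 to 68.9 in ND-RHL. Batf3 was at 28.2 to 43.8 in AE-PF on that scale, above 10.3 to 13.6 in saline and 11.3 to 17.7 in ND-RHL. Irf8 was at 77.3 to 97.3, 92.4 to 109 and 74.0 to 93.1 in saline, AE-PF and ND-RHL. These ratios depend on Ptprc as the denominator, since other leukocyte genes had other patterns. Ptprc stood at 9.88 to 12.9 FPKM in saline and 13.4, 7.75, 17.7 and 17.1 FPKM in AE-PF libraries 1 to 4. Cd53, another gene of all leukocytes, stood at 26.3 to 36.8 FPKM in saline and 69.4, 59.9, 75.5 and 77.3 FPKM in AE-PF.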
